A study of Mus musculus with 10 samples.

Results

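The comparison described here sets leptotene/zygotene spermatocytes of the juvenile mouse testis against a mixture of somatic organs. It rests on 4 of the 10 samples of the study, 2 of the leptotene/zygotene fraction and 2 of the somatic mix, chosen by their titles. The leptotene/zygotene cells were fraction 5 of a Percoll density gradient loaded with enzyme-dissociated testes of 12-day-old males, and the somatic mix was RNA of 11 organs (skin, muscle, brain, heart, lung, spleen, kidney, liver, stomach, intestine and colon) of 15-day-old males. All mice were C57BL/6, and neither group carried a mutation or received a treatment. The other 6 samples were 2 each of spermatogonia (fraction 2, day 8), pachytene spermatocytes (fraction 8, day 15) and whole testis (day 15). They are used below to place a gene in the germ line. Their arrays also entered the scaling, the signal floor, the choice of probe set per gene and the spread in the limma test, all described below. The study searched for genes that act in segregating chromosomes at meiosis I, as its title says, and the pool of organs shows which of the transcripts of a meiotic fraction are also found outside the germ line. The fraction is an enrichment by density, not a pure cell type, and the sources used here do not give the proportions in which the organs were mixed.

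Leptotene and zygotene are the opening stages of meiotic prophase. In leptotene each replicated chromosome is laid out along an axis of cohesin and axial proteins and programmed DNA breaks are made. In zygotene the breaks invade the homologous chromosome, telomeres gather at the nuclear envelope, and the synaptonemal complex begins to join the homologs along their length. Many of the genes that carry this out are transcribed only in germ cells, and in somatic cells several of them are kept silent by DNA methylation and by a Polycomb complex that holds E2F6, MGA and MAX.

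Each group was hybridised to 2 Affymetrix array designs with different probe sets, the sample numbered 1 to the first design and the sample numbered 2 to the second, so that each design held 1 array per group. A gene was read from 1 probe set and therefore from 1 array of each group, and gene differences have no test across replicates. Signals are given in scaled array units, after each array was brought to the trimmed mean of its design. The floor, below which a signal was not read as a level, was 87.6 on the first design and 47.0 on the second, and a fold against a group below the floor is a lower bound. The share of probe sets above the floor was 58.7% and 50.5% on the leptotene/zygotene arrays and 64.1% and 56.0% on the somatic mix arrays. Both samples of a group gave like values of the RNA quality controls: the 3' to 5' signal ratio of Gapdh was 1.07 and 1.12 in leptotene/zygotene and 1.21 and 1.18 in somatic mix, and that of beta-actin 3.18 and 3.13 against 1.88 and 2.30. Transcripts of the pancreas, an organ not among the 11 listed, were high in somatic mix and above the floor in whole testis, which also carried transcripts of liver and intestine (values below). "Rose" and "fell" are used of differences of at least 4-fold. A smaller difference is called beyond the error limit where it exceeds 0.51 on the log2 scale (1.42-fold), which is the 95% limit taken from the gap between designs over 100 probe sets present on both. These probe sets were well above the floor, so for genes near the floor the limit is not a 95% statement. It also leaves out the gap between different probe sets of a gene, whose differences correlated at r = 0.48 between designs over 2265 genes.

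Of 18194 genes on the arrays, 14805 were above the floor in at least 1 of the 2 groups. In leptotene/zygotene 796 genes rose (5.38% of the genes measured) and 1090 fell (7.36%). Somatic mix was below the floor for 286 of the genes that rose (1.93% of the genes measured), and leptotene/zygotene was below the floor for 703 of those that fell (4.75%). The falls were the larger ones: 255 genes fell by at least 16-fold and 63 by at least 64-fold, while 76 rose by at least 16-fold and 6 by at least 64-fold. Beyond the error limit, 33.8% of the genes measured were higher in leptotene/zygotene and 32.2% were lower. The median difference was 0.01 (log2) over all genes measured and 0.20 over the 10947 genes above the floor in both groups. The split of the calls moved with the scaling. Higher genes made up 42.2% of the calls as reported, 58.0% with the values as deposited and 30.9% with arrays scaled to the probe sets present on both designs, which put the median of the genes above the floor in both groups at 0.54 and -0.01. As deposited, 1262 genes rose, and with the floor at the 60th percentile of all signals 497 rose and 709 fell.

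**Figure D1:**
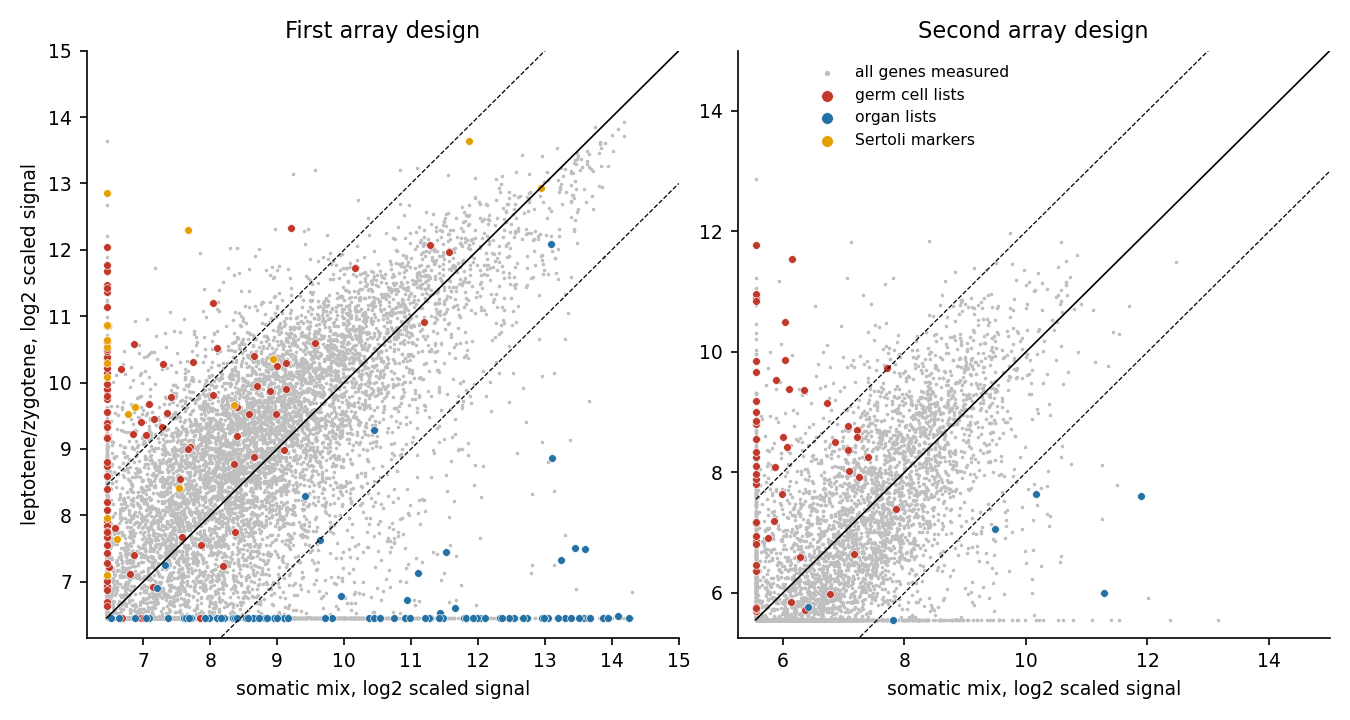
Log2 scaled signal of each gene measured in leptotene/zygotene (vertical axis) against somatic mix (horizontal axis), with genes of the first array design on the left and of the second on the right. The solid line marks equal signal and the dashed lines a 4-fold difference, and signals below the floor are drawn at the floor. Many germ cell list genes lie along the left edge or above the upper dashed line, and most organ list genes lie along the bottom edge.

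The fraction carried the transcripts that mark it. Meiob, a single-strand DNA binding protein of meiotic recombination, gave 277 in leptotene/zygotene and a signal below the floor in somatic mix, which is at least 5.89-fold higher. Dmrt1, a transcription factor of spermatogonia that is also made by Sertoli cells, gave 1872 in leptotene/zygotene and a signal below the floor in somatic mix (at least 21.4-fold). Zfp541, a zinc finger protein of spermatocytes, gave 461 in leptotene/zygotene and a signal below the floor in somatic mix (at least 9.81-fold). Their levels across the germ line were not alike: the Meiob signal was 57.4 in spermatogonia, 192 in pachytene and 736 in whole testis, Dmrt1 had 1446, 262 and 1225, and Zfp541 had 65.4, 2278 and 1141. Zfp541 was thus brightest in pachytene, and Dmrt1 was about as bright in spermatogonia as in leptotene/zygotene. Over the 12 germ cell lists, which name 211 genes, 186 were on the arrays and 164 were measured. Of these 80 rose and 1 fell, somatic mix was below the floor for 83, and the median difference was 1.76 (log2), against 5.38% rising and a median of 0.01 over all genes measured. The 83 were measured through leptotene/zygotene alone and could not fall, so the count of falls and the median are partly set by that rule. In bulk RNA of this kind, fewer cells of a type and less RNA per cell cannot be told apart.

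Synaptonemal complex genes had the highest median difference of the 34 lists. All 11 members measured were higher beyond the error limit, 9 rose, none fell, and the median was 3.44. Sycp3, a component of the chromosome axis that becomes the lateral element, gave 2828 in leptotene/zygotene and a signal below the floor in somatic mix (at least 32.3-fold). Its axis partner Sycp2 gave 1919 in leptotene/zygotene and a signal below the floor in somatic mix (at least 40.8-fold). Sycp1 forms the transverse filaments between the lateral elements and gave 949 in leptotene/zygotene and a signal below the floor in somatic mix (at least 10.8-fold). The central element genes rose with them. Syce3 gave 1916 in leptotene/zygotene and a signal below the floor in somatic mix (at least 40.8-fold) and Tex12 gave 1339.8 in leptotene/zygotene and a signal below the floor in somatic mix (at least 15.3-fold). Syce1 was just above the floor in somatic mix, with 1439.5 in leptotene/zygotene and 65.7 in somatic mix, a difference of 21.9-fold, while Six6os1 was at least 7.98-fold higher. Syce2 was the member with a clear signal in the organs, at 5129.7 in leptotene/zygotene and 591 in somatic mix, and it still rose 8.68-fold. Trip13, an ATPase that strips HORMA proteins from synapsed axes and is also used in mitosis, gave 1273 in leptotene/zygotene and 214 in somatic mix (5.95-fold). A different Trip13 probe set on the second design gave a difference of -0.062 (log2). The HORMA genes themselves were nearer the floor: Hormad1 gave 205 and Hormad2 117 in leptotene/zygotene with somatic mix below the floor, and their bounds of 1.23 and 1.31 (log2) lie below the 4-fold call. In the order spermatogonia, leptotene/zygotene and pachytene, Sycp3 gave 1216, 2828 and 2501, and Syce1 gave 695, 1439.5 and 6378. Sycp3 was therefore near its pachytene level in leptotene/zygotene, and Syce1 was not.

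Meiotic cohesin and segregation genes were higher in 11 of 12 members beyond the error limit, and 5 rose (median 1.66). Stag3, the cohesin subunit found only in meiotic complexes, gave 1420.3 in leptotene/zygotene and a signal below the floor in somatic mix (at least 16.2-fold). The germline subunit Smc1b gave 755 in leptotene/zygotene and a signal below the floor in somatic mix (at least 8.61-fold). Rec8, the meiotic kleisin, had a weak signal, 269 in leptotene/zygotene and a signal below the floor in somatic mix, and its bound of 1.62 (log2) does not reach the 4-fold call. Bub1, a kinase of the spindle checkpoint, rose 13.2-fold with 1535 in leptotene/zygotene and 117 in somatic mix, and Tex14, which keeps the bridges between germ cells open, gave 1239.9 in leptotene/zygotene and 88.2 in somatic mix (14.1-fold). Esco2, an acetyltransferase that sets cohesion during replication, rose at least 5.08-fold. Of the kinases of the divisions themselves, Plk1 was closer to the organs, with 585 in leptotene/zygotene and 339 in somatic mix. Aurkc gave 123 in leptotene/zygotene and a signal below the floor in somatic mix, a bound of 0.49 (log2) that does not show how close it was. None of the 9 genes of cohesin shared with somatic cells was called, beside 5.38% rising and 7.36% falling over all genes measured. With so few genes, a count of none is near those shares. Beyond the error limit 4 of the 9 were higher (median 0.45), beside 33.8% of all genes measured. That median was 1.15 as deposited, 0.73 with median scaling, 0.74 with the mean over probe sets and 0.30 with arrays scaled to the shared probe sets. Smc1a, the general form of the subunit that Smc1b replaces, gave 691 in leptotene/zygotene and 849.6 in somatic mix, and Rad21, the mitotic kleisin, gave 695 in leptotene/zygotene and 594 in somatic mix. Stag1, Wapl, which releases cohesin, and Smc3 were the highest of this group relative to somatic mix, at 1.95, 1.79 and 1.53 (log2). Another Smc3 probe set gave -0.40 (log2), and the 2 other Rad21 probe sets gave 0.37 and 1.73. Other probe sets ranged from -0.20 to 1.62 for Stag1 and from -0.84 to 1.65 for Nipbl, so these levels depend on the probe sets read.

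The promoters of the germ cell genes were searched for the letters bound by regulators of the germ line. The windows span 250 bases before to 50 after each gene start in RefSeq (GRCm38.p6), and both strands were read for CACGTG, the E-box of MAX and MGA, and GCGGGAA, an E2F motif. Of the 186 germ cell list genes on the arrays 149 had a window, and 18.8% of these held the E-box and 16.8% the E2F motif. Of the 796 genes that rose 671 had a window, with 10.9% and 11.6%. Of the 286 that rose with somatic mix below the floor 240 had a window, with 8.33% and 11.2%. Of all 14805 genes measured 11835 had a window, with 9.56% and 7.69%, and over all 27025 promoters of the table the shares were 7.24% and 4.66%. The E-box share of the genes that rose was thus close to that of the genes measured. The median ratio of observed to expected CpG was 0.673 in the windows of the germ cell list genes, 0.758 in those of the genes that rose, 0.692 in those that rose with somatic mix below the floor, 0.721 in the genes measured and 0.389 in all promoters. Both motifs hold a CpG. CRE (TGACGTCA) and a MYB motif (GGCAGTT) were found in 1.34% and 4.70% of the germ cell list windows, against 1.88% and 4.14% of all promoters. Windows with both the E-box and the E2F motif were found in 5 of the germ cell list genes that rose, Sycp3, Stag3, Ddx4, Tex12 and Rec114, and the window with the most E-boxes (5) was that of Nxf2. Of these, 4 are shown because they carry the motifs in genes of different roles, the chromosome axis, meiotic cohesin, the germ granule and mRNA export, with the motifs in capitals and each window given 5′ to 3′ (TTCCCGC is the E2F motif on the other strand).
Sycp3, chr10:88459337-88459636, plus strand: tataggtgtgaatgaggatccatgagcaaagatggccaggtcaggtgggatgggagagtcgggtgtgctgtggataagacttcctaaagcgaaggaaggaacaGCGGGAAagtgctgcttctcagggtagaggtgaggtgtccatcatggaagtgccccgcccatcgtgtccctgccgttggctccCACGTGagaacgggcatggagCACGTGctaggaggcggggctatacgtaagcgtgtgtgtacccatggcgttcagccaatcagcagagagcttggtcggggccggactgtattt
Stag3, chr5:138280259-138280558, plus strand: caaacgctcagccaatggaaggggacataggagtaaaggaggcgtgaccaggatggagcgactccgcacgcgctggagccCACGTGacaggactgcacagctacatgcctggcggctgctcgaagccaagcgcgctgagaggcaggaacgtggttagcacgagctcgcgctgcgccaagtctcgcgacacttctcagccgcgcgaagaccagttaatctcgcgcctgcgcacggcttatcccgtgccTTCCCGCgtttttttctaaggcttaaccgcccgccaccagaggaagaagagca
Ddx4, chr13:112652261-112652560, minus strand: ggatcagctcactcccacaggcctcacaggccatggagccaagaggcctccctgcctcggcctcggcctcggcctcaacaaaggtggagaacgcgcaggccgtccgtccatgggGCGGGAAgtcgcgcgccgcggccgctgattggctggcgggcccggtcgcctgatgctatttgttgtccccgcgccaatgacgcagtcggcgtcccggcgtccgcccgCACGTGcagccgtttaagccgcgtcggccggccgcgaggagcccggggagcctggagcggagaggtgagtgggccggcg
Nxf2, chrX:134964705-134965004, minus strand: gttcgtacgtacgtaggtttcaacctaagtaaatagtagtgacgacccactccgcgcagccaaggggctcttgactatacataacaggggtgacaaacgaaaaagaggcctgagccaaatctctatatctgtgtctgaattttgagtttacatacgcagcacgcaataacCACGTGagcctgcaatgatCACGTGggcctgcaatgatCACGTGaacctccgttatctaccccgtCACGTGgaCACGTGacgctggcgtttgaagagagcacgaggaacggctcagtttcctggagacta
The E-boxes of Sycp3 begin 64 and 43 bases before the gene start, and those of Stag3 and Ddx4 begin 170 and 29 bases before it. These matches describe the letters only, and binding was not measured.

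**Figure D2:**
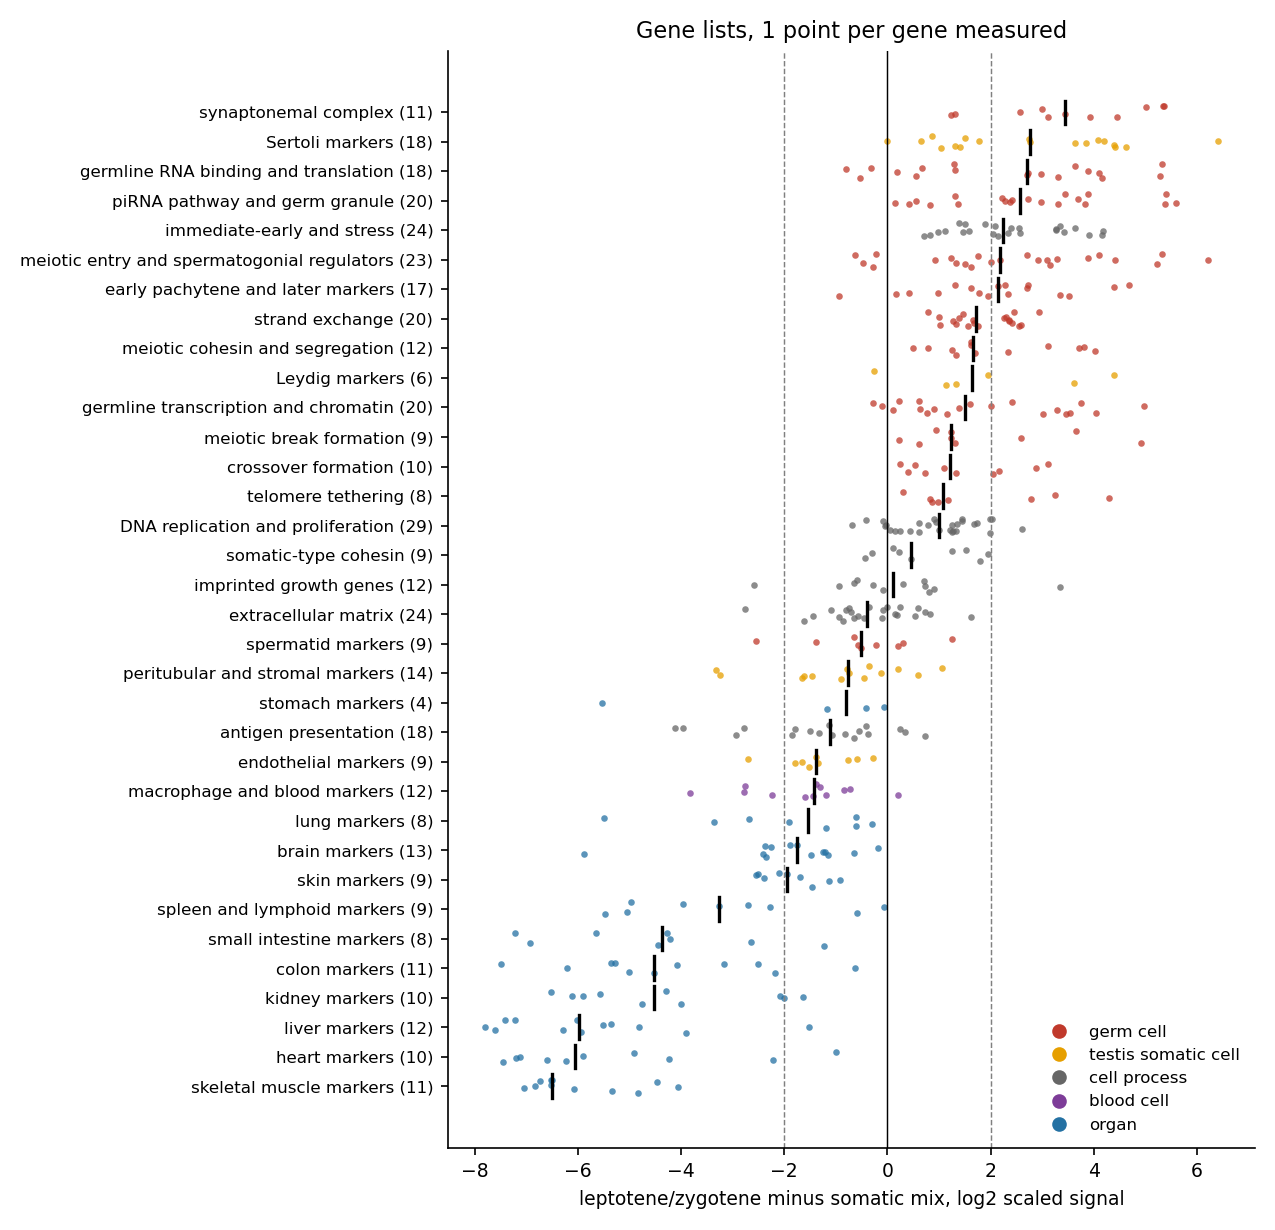
Difference of log2 scaled signal, leptotene/zygotene minus somatic mix, for the measured members of 34 gene lists (1 point per gene, number measured in brackets), ordered by the list median (black bar). The dashed lines mark 4-fold. The synaptonemal complex list has the highest median (3.44) and the skeletal muscle list the lowest (-6.50).

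Genes of DNA break formation and repair were higher as a group, by less than the synaptonemal complex genes. Of 9 break formation genes measured, 8 were higher beyond the error limit and 3 rose (median 1.23). Tex15, a germ cell protein needed for loading recombinases, gave 2638 in leptotene/zygotene and a signal below the floor in somatic mix (at least 30.1-fold). Rec114 and Mei1, which act with the break-forming enzyme, gave 738 in leptotene/zygotene and 58.9 in somatic mix (12.5-fold) and 385 in leptotene/zygotene and 63.96 in somatic mix (6.01-fold). Another Rec114 probe set gave a smaller difference, 0.76 (log2). Spo11, which encodes the catalytic subunit, gave only 224 in leptotene/zygotene and 95.8 in somatic mix, a difference of 1.23 (log2), while its pachytene signal was 1362. Prdm9, the histone methyltransferase that places the breaks, gave 134 in leptotene/zygotene and a signal below the floor in somatic mix, a bound of 0.62. All 20 strand exchange genes measured were higher beyond the error limit and 9 rose (median 1.71). Dmc1, the meiotic recombinase, gave 668 in leptotene/zygotene and a signal below the floor in somatic mix (at least 7.62-fold), against 213 in spermatogonia and a signal below the floor in pachytene. Psmc3ip, a cofactor of Dmc1, rose 5.14-fold. Fignl1 rose 6.01-fold, Brca2 5.36-fold with 1465 in leptotene/zygotene and 274 in somatic mix, Rad51ap1 5.44-fold, Hsf2bp 5.11-fold, Brca1 4.93-fold and Brme1 at least 4.78-fold. Other probe sets did not repeat these folds for Hsf2bp (-0.65 on the log2 scale), Fignl1 (-0.10) and Brca1 (-0.62 and 0.59). These genes differ in whether the organs express them: Brca2, Brca1 and Rad51ap1 serve repair in dividing somatic cells and were above the floor there, while Dmc1, Meiob and Brme1 were below it. The split did not hold throughout the list. Psmc3ip and Hsf2bp were also above the floor in somatic mix, at 170 and 67.1, and Rad54b was below it. The subunits of replication protein A, which coats single-stranded DNA in every cell, were 0.78 to 1.75 higher (log2) and none was called. Another Rpa2 probe set gave 2.50, which is above the 4-fold call, and another Rpa1 probe set gave 1.56. The absence of calls thus depends on the probe sets read.

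Crossover genes were higher beyond the error limit in 8 of 10 members and 4 rose (median 1.21). Ccnb1ip1, also known as Hei10, gave 756 in leptotene/zygotene and a signal below the floor in somatic mix (at least 8.62-fold), and Tex11, an X-linked crossover gene, gave 641 in leptotene/zygotene and a signal below the floor in somatic mix (at least 7.32-fold). Cdk2 and Exo1, which also act in somatic cells, rose 4.50-fold and 4.13-fold. Msh4 and Msh5, which form a meiotic clamp on recombination intermediates, were near the floor: Msh4 gave 103 in leptotene/zygotene and a signal below the floor in somatic mix and Msh5 168 in leptotene/zygotene and 116 in somatic mix. Terb1, Majin and Spdya, which act where telomeres meet the nuclear envelope in spermatocytes, rose at least 19.7-fold, at least 9.55-fold and at least 6.91-fold with somatic mix below the floor, and Terb1 reached 925 in leptotene/zygotene. The general telomere proteins Terf1, Terf2 and Terf2ip differed by 0.30 to 0.97 (log2), with Terf2ip within the error limit, and Sun1, an inner nuclear membrane protein of many tissues, gave 1258 in leptotene/zygotene and 559.6 in somatic mix. Of the 8 telomere genes measured, 7 were higher beyond the error limit, 3 rose and the median was 1.07.

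Among regulators of meiotic entry and of spermatogonia 13 of 23 rose (19 higher and 1 lower beyond the error limit, median 2.19). Rhox13, an X-linked homeobox gene of germ cells, gave 3492 in leptotene/zygotene and a signal below the floor in somatic mix (at least 74.3-fold). Stra8, which is induced by retinoic acid at the entry into meiosis, gave 3295 in leptotene/zygotene and a signal below the floor in somatic mix (at least 37.6-fold), against 2081 in spermatogonia and 376 in pachytene. Dazl, an RNA-binding protein needed for germ cells to enter meiosis, gave 3514 in leptotene/zygotene and a signal below the floor in somatic mix (at least 40.1-fold). The Meioc and Ythdc2 pair, which lets cells leave the mitotic program, gave 810.5 in leptotene/zygotene and a signal below the floor in somatic mix (at least 17.2-fold) and 305 in leptotene/zygotene and a signal below the floor in somatic mix (at least 6.50-fold). Genes named for spermatogonia were present as well. Sall4 gave 750.3 in leptotene/zygotene and a signal below the floor in somatic mix (at least 8.56-fold), Sohlh1 671 in leptotene/zygotene and 68.5 in somatic mix (9.80-fold), Uchl1 2341 in leptotene/zygotene and 263 in somatic mix (8.90-fold) and Kit, the receptor of differentiating spermatogonia, 748 in leptotene/zygotene and 164 in somatic mix (4.56-fold). A further Sall4 probe set gave 0.34 (log2), within the error limit. Receptors of the stem cell niche were not higher than in the organs: Gfra1 gave 168 in leptotene/zygotene and 232 in somatic mix and Ret 121 in leptotene/zygotene and 142 in somatic mix. Rarg, a retinoic acid receptor, was the member lower beyond the error limit, with 214 in leptotene/zygotene and 331 in somatic mix.

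Among transcription and chromatin regulators 9 of 20 rose and 16 were higher beyond the error limit (median 1.498). Taf7l, an X-linked germ cell form of a general transcription factor subunit, gave 2735 in leptotene/zygotene and a signal below the floor in somatic mix (at least 31.2-fold), and Tcfl5, a basic helix-loop-helix factor of spermatocytes, gave 1449.7 in leptotene/zygotene and a signal below the floor in somatic mix (at least 16.5-fold). Tex19.1, which restrains retrotransposons, rose at least 13.5-fold, and Scml2, an X-linked Polycomb-related gene, rose at least 11.0-fold. Dnmt3b, a de novo DNA methyltransferase, rose 11.6-fold with 1175 in leptotene/zygotene and 102 in somatic mix, whereas Dnmt3a gave 508 in leptotene/zygotene and 548 in somatic mix and was not called. The other Dnmt3b probe set gave 0.44 (log2), within the error limit. The 4 other Dnmt3a probe sets ranged from -0.38 to 1.24, so this contrast depends on the probe sets read. Mybl1, which drives the pachytene program, gave 143 in leptotene/zygotene and a signal below the floor in somatic mix and Brdt, a bromodomain protein of later spermatocytes, 136 in leptotene/zygotene and a signal below the floor in somatic mix. E2f6 itself gave 470.0 in leptotene/zygotene and 401 in somatic mix. RNA-binding proteins of germ cells rose in 10 of 18 cases (14 higher and 2 lower beyond the error limit, median 2.71). Elavl2, of whose 4 other probe sets 3 were higher and 1 lower (-0.31 on the log2 scale), gave 1565 in leptotene/zygotene and a signal below the floor in somatic mix (at least 17.9-fold), against 552 in spermatogonia and a signal below the floor in pachytene, so leptotene/zygotene was the brightest of the 5 groups for it. Nxf3, an X-linked relative of the mRNA export receptor, gave 1832 in leptotene/zygotene and a signal below the floor in somatic mix (at least 39.0-fold) and Rbm44 583 in leptotene/zygotene and a signal below the floor in somatic mix (at least 12.4-fold). The members lower beyond the error limit, Patl2 and Pabpc1l, are better known from oocytes and gave 99.9 in leptotene/zygotene and 144 in somatic mix and 62.9 in leptotene/zygotene and 109 in somatic mix.

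The piRNA pathway makes small RNAs that silence transposons in germ cells. The list of piRNA pathway and germ granule genes, which also holds other germ cell genes, rose in 14 of 20 members (18 higher beyond the error limit, none lower, median 2.57). The largest difference of the list was in Tex101, a surface protein of germ cells, with 4221 in leptotene/zygotene and a signal below the floor in somatic mix (at least 48.2-fold). Mael, a protein of the germ granule, gave 1985 in leptotene/zygotene and a signal below the floor in somatic mix (at least 42.2-fold), and Gtsf1, a zinc finger partner of PIWI proteins, gave 2976 in leptotene/zygotene and 71.4 in somatic mix (41.7-fold). Gtsf1 had the largest rise of any gene above the floor in both groups under the naming rule. Of the PIWI proteins, Piwil2 gave 1135 in leptotene/zygotene and a signal below the floor in somatic mix (at least 13.0-fold) and Piwil1 427 in leptotene/zygotene and a signal below the floor in somatic mix (at least 4.87-fold). In pachytene Piwil1 reached 3527 and Piwil2 1699, each above its own leptotene/zygotene signal. The fetal form Piwil4 was near the floor, with 52.0 in leptotene/zygotene and a signal below the floor in somatic mix. The helicases Tdrd9, Ddx4 and Mov10l1 rose 14.3-fold, at least 14.9-fold and 7.90-fold. Tdrd7 and Tdrd3, which other tissues also express, gave 737 in leptotene/zygotene and 505 in somatic mix and 438 in leptotene/zygotene and 328 in somatic mix and were not called.

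Several transcripts of the following stages were already above the floor. Of 23 genes of pachytene and later stages 17 were measured, 9 rose, and beyond the error limit 14 were higher and 1 was lower (median 2.14). Rsph1, a radial spoke protein of the later sperm tail, gave 2244 in leptotene/zygotene and a signal below the floor in somatic mix (at least 25.6-fold), with 365 in spermatogonia and 15701 in pachytene. Ldhc, the germ cell lactate dehydrogenase, gave 1855 in leptotene/zygotene and 88.9 in somatic mix (20.9-fold), with spermatogonia below the floor and 23494 in pachytene. Fabp9, a fatty acid binding protein of spermatocytes, gave 1007 in leptotene/zygotene and a signal below the floor in somatic mix (at least 11.5-fold) against 12651 in pachytene. The leptotene/zygotene signals of these 3 genes were thus far above the organs and far below pachytene. How much of this signal came from pachytene cells in the fraction was not tested. Spermatid genes were at the edge of detection: 11 of 20 were below the floor in both groups, none rose, and the 9 measured had a median of -0.51, which was -0.030 with the floor at the 60th percentile and 0.25 over the 4 measured on the second design. Smcp, a gene of the sperm mitochondrial capsule, was the germ cell list member that fell, with a signal below the floor in leptotene/zygotene and 511 in somatic mix (at least 5.83-fold lower).

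**Figure D3:**
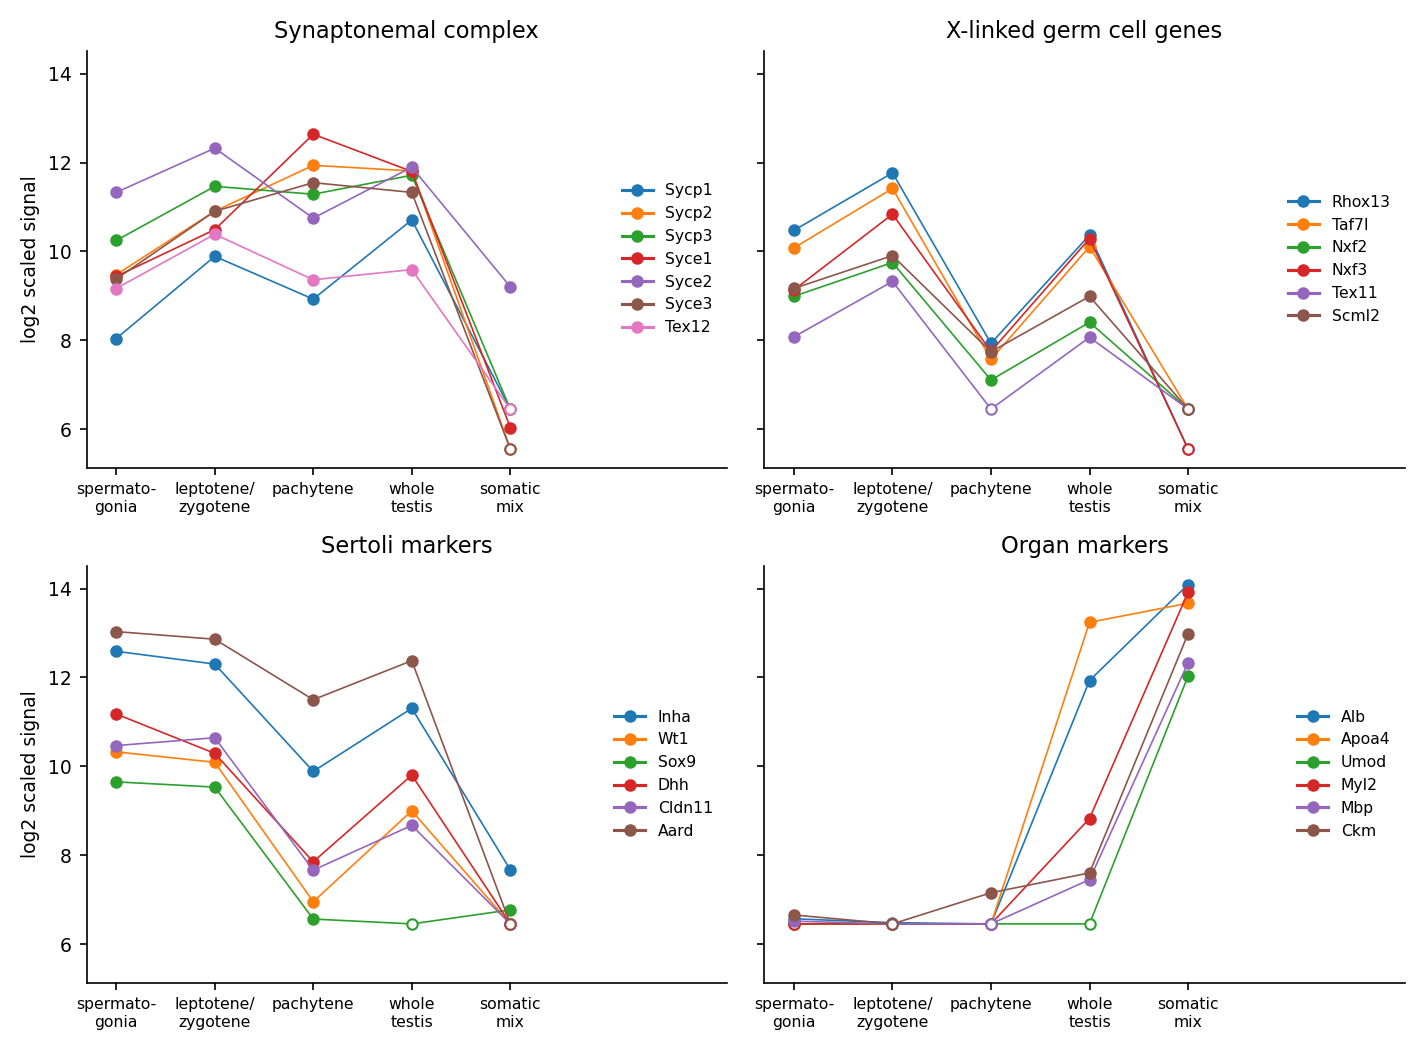
Log2 scaled signal of chosen members of 4 gene groups in spermatogonia, leptotene/zygotene, pachytene, whole testis and somatic mix (1 array per point). Open points lie below the floor and are drawn at it. The synaptonemal complex genes shown are well above the floor in all germ cell groups, the X-linked germ cell genes shown peak in leptotene/zygotene and are low in pachytene, Sertoli markers are high in spermatogonia and leptotene/zygotene, and organ markers are high in somatic mix and, for Alb and Apoa4, in whole testis.

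X-linked genes rose in a larger share than autosomal genes. Of 492 X-linked genes measured, 77 rose (15.7%) and 22 fell (4.47%), against 714 (5.03%) and 1066 (7.51%) of 14199 autosomal genes. No autosome had more than 6.28% of its genes rising (chromosome 4), and the lowest share was 3.74% (chromosome 11). Of the X-linked genes that rose, 40 had somatic mix below the floor, which is 8.13% of those measured, and the same share was 1.71% for autosomal genes. The median difference of all X-linked genes was 0.15, beside medians of -0.13 to 0.15 on the autosomes. The difference between the X chromosome and the autosomes was not tested. Besides Rhox13, Taf7l and Nxf3, the genes included Fmr1nb, a cancer-testis antigen, with 2594 in leptotene/zygotene and a signal below the floor in somatic mix (at least 29.6-fold), and Mageb16, a member of another such family, with 1189.8 in leptotene/zygotene and a signal below the floor in somatic mix (at least 25.3-fold). Nxf2 gave 862 in leptotene/zygotene and a signal below the floor in somatic mix (at least 9.83-fold) and Tktl1, a transketolase relative, 1156 in leptotene/zygotene and a signal below the floor in somatic mix (at least 13.2-fold). Hdac6, a deacetylase of many tissues, gave 4155 in leptotene/zygotene and 338 in somatic mix (12.3-fold). Some of the X-linked genes are products of testis somatic cells: Rhox5, a homeobox gene of Sertoli cells, gave 1479 in leptotene/zygotene and a signal below the floor in somatic mix (at least 16.9-fold), and Nr0b1, a nuclear receptor of Sertoli and Leydig cells, gave 1171 in leptotene/zygotene and a signal below the floor in somatic mix (at least 13.4-fold). In pachytene the sex chromosomes are silenced. Signals below the floor were set to it for the following medians. The 77 genes had medians of 575 in spermatogonia, 862 in leptotene/zygotene, 135 in pachytene, 387 in whole testis and 87.6 in somatic mix. The 714 autosomal genes that rose had medians of 552, 798, 490, 591 and 106 in the same order. Both sets were chosen for a leptotene/zygotene signal at least 4-fold above somatic mix. The medians in leptotene/zygotene and somatic mix follow from that choice, and silencing was not tested. Of the 9 genes of the Y chromosome measured, Uba1y and Usp9y rose, with 1480.0 in leptotene/zygotene and a signal below the floor in somatic mix for Uba1y and 426 in leptotene/zygotene and a signal below the floor in somatic mix for Usp9y.

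**Figure D4:**
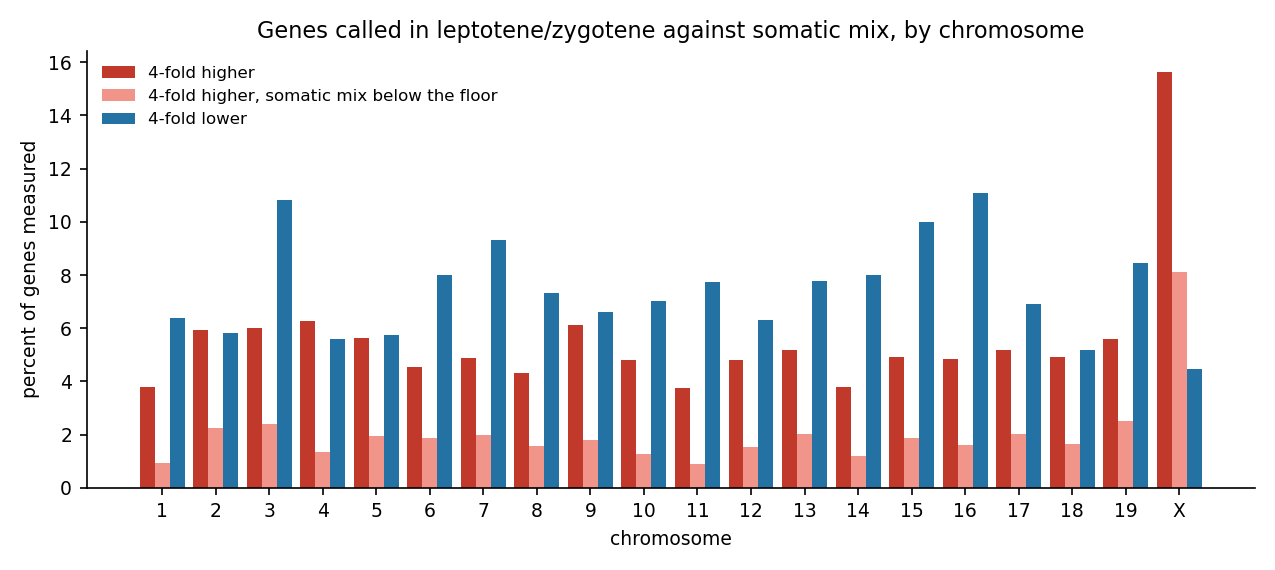
Percent of the genes measured on each autosome and on the X chromosome that were at least 4-fold higher in leptotene/zygotene, 4-fold higher with somatic mix below the floor, or 4-fold lower. The X chromosome has 15.7% of its genes higher, above all autosomes (3.74 to 6.28%), and 4.47% lower.

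DNA replication genes were compared because cells in leptotene have just passed the last replication before meiosis. Of 29 measured, 20 were higher beyond the error limit, 1 was lower and 2 rose, beside 5.38% of all genes measured (median 0.99, and 0.26 over the 9 measured on the second design). Rfc4, a subunit of the clamp loader, gave 1589 in leptotene/zygotene and 261 in somatic mix (6.09-fold), and Ccne2, a cyclin of the entry into replication, 355 in leptotene/zygotene and a signal below the floor in somatic mix (at least 4.06-fold). The helicase subunits Mcm3 and Mcm5 gave 1664 in leptotene/zygotene and 615 in somatic mix and 1669.9 in leptotene/zygotene and 657 in somatic mix. Pcna, the sliding clamp, and Mki67, a proliferation marker, were within the error limit, with 6625 in leptotene/zygotene and 5573 in somatic mix for Pcna and 1697 in leptotene/zygotene and 1812 in somatic mix for Mki67. Tk1, thymidine kinase, was the member lower beyond the limit, with 415 in leptotene/zygotene and 669.5 in somatic mix.

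The 8 genes named for the highest signal against organs below the floor included secreted products of the testis and 1 listed germ cell gene, Tex101. Cst12, a cystatin, gave 12771 in leptotene/zygotene and a signal below the floor in somatic mix (at least 146-fold). Defb19, a beta-defensin, gave 7454 in leptotene/zygotene and a signal below the floor in somatic mix (at least 159-fold). Aard, which is on the Sertoli list, gave 7442 in leptotene/zygotene and a signal below the floor in somatic mix (at least 84.9-fold), and Cst9, also called testatin and a product of Sertoli cells, 6571 in leptotene/zygotene and a signal below the floor in somatic mix (at least 75.0-fold). Tmem114, a claudin-related membrane protein, Cited1, a transcriptional coactivator, and Eppin, a protease inhibitor of the male tract, rose at least 53.8-fold, at least 48.6-fold and at least 48.2-fold. Their signals in spermatogonia were close to those in leptotene/zygotene: 12622 for Cst12, 7292 for Defb19, 8380.2 for Aard and 7565 for Cst9. For genes with both groups above the floor, the largest rises after Gtsf1 were in Ly6k, a germ cell surface protein related to that of Tex101, with 3643 in leptotene/zygotene and 139 in somatic mix (26.2-fold, with another probe set at -0.061 on the log2 scale), in Inha, the inhibin alpha subunit, with 5051 in leptotene/zygotene and 204 in somatic mix (24.7-fold), and in Socs3, an inhibitor of cytokine signalling, with 3406 in leptotene/zygotene and 144 in somatic mix (23.7-fold). They were followed by Syce1, Ldhc, Zfp518a, a zinc finger protein (18.4-fold), and Csrnp1, a nuclear protein (17.96-fold). A further Csrnp1 probe set gave -0.68 (log2).

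Markers of Sertoli cells, which surround and nourish the germ cells, rose in 10 of 18 members, and 17 were higher beyond the error limit (median 2.76, and 1.67 with the mean over probe sets). Inhbb, the inhibin beta B subunit, gave 1845 in leptotene/zygotene and a signal below the floor in somatic mix (at least 21.1-fold), while its other probe set was lower, at -0.72 (log2). Cldn11, a tight junction protein of the blood-testis barrier, gave 1599.7 in leptotene/zygotene and a signal below the floor in somatic mix (at least 18.3-fold). The transcription factors Wt1 and Sox9 gave 1090.1 in leptotene/zygotene and a signal below the floor in somatic mix (at least 12.4-fold) and 741 in leptotene/zygotene and 109 in somatic mix (6.79-fold), and Dhh, a signal to neighbouring cells, 1254 in leptotene/zygotene and a signal below the floor in somatic mix (at least 14.3-fold). For Sox9 the other probe set gave 0.20 (log2), within the error limit. Clu, which many organs express, gave 12739 in leptotene/zygotene and 3739 in somatic mix, a difference of 1.77 (log2). The median signal of the 18 genes was 1350 in spermatogonia, 1280 in leptotene/zygotene, 190 in pachytene, 528 in whole testis and 92.4 in somatic mix, so leptotene/zygotene stood above whole testis. Summed over the list, the signal was 46799 in leptotene/zygotene and 13940 in somatic mix. Leydig cell genes followed in part, with 2 of 6 rising and 5 higher beyond the error limit (median 1.64, and 0.0090 for the 1 member measured on the second design, summed signal 7869 against 3950): Cyp17a1, an androgen-making enzyme, gave 1838 in leptotene/zygotene and a signal below the floor in somatic mix (at least 21.0-fold) and Hsd3b1 1516 in leptotene/zygotene and 123 in somatic mix (12.3-fold). Peritubular and stromal genes were not raised: none of 14 rose, 2 fell (Des and Actg2, 10.0-fold and 9.46-fold lower) and the median was -0.77 (0.92 for the 1 measured on the second design), with summed signals of 22762 in leptotene/zygotene and 33790 in somatic mix. Acta2, smooth muscle actin, gave 6040.4 in leptotene/zygotene and 6599.9 in somatic mix. None of the 12 macrophage and blood genes rose and 4 fell (median -1.42, summed signal 2889 against 12354), and none of the 9 endothelial genes rose and 1 fell (median -1.39, summed signal 1320 against 3579). Over all genes measured 5.38% rose and 7.36% fell, so the absence of rises in lists this small, and the endothelial fall, are near those shares. The part of testis somatic cells in the genes that rose was not tested.

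Immediate-early and stress genes, which cells switch on within minutes of a stimulus, were higher beyond the error limit in all 24 members and rose in 15 (median 2.24, and 0.71 over the 3 measured on the second design). Over all genes measured, 33.8% were higher beyond the error limit and 5.38% rose. Fosb and Egr2, transcription factors of the immediate-early response, gave 1582 in leptotene/zygotene and a signal below the floor in somatic mix (at least 18.1-fold) and 1575 in leptotene/zygotene and a signal below the floor in somatic mix (at least 17.97-fold). Fos gave 9032 in leptotene/zygotene and 601 in somatic mix (15.0-fold) and Egr1 9455 in leptotene/zygotene and 757 in somatic mix (12.5-fold). Atf3, a stress-induced factor, Nr4a1, an orphan nuclear receptor, and Gadd45b rose 10.7-fold, 10.2-fold and 9.62-fold. Hspa1b, the inducible heat shock protein, gave 1242 in leptotene/zygotene and 699 in somatic mix and was not called. Their median signal was 2516 in spermatogonia, 1850 in leptotene/zygotene, 501 in pachytene, 205 in whole testis and 336 in somatic mix. The medians of the 3 fractions that were dissociated with enzymes and spun through Percoll were above those of whole testis and somatic mix. The whole testis arrays stood apart in RNA quality, with 3' to 5' ratios of 4.33 and 3.75 for Gapdh and 5.22 and 6.57 for beta-actin and a 3' signal of the 18S control of 176 and 154, and the part of this in its levels was not tested. Dissociation was shared by all leptotene/zygotene samples and by none of the organs as far as the labels say, so its part and that of the cell type cannot be told apart.

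Markers of single organs fell. Of 104 genes measured from the 11 organ lists, 76 fell and none rose (median -4.07), and leptotene/zygotene was below the floor for 82. Over all genes measured 7.36% fell and 5.38% rose. The 82 were measured through somatic mix alone and could not rise, so the absence of rises and the median are partly set by that rule. Skeletal muscle genes fell in 11 of 11 cases (median -6.50, and -0.56 over the 2 measured on the second design), with a signal below the floor in leptotene/zygotene and 11621 in somatic mix for Tnnc2, a troponin (at least 133-fold lower), and a signal below the floor in leptotene/zygotene and 10037 in somatic mix for Acta1, skeletal actin (at least 115-fold lower). Heart genes fell in 9 of 10 cases (median -6.07, and -1.28 for the 1 measured on the second design), among them Myl2, a ventricular myosin light chain, with a signal below the floor in leptotene/zygotene and 15436 in somatic mix (at least 176-fold lower), and Myh6, the alpha cardiac myosin, with 161 in leptotene/zygotene and 9659 in somatic mix (59.9-fold lower). Tnni3, cardiac troponin I, was the heart member that was not called, with 4357 in leptotene/zygotene and 8742 in somatic mix, beside 4684 in spermatogonia and 2165 in whole testis. Liver genes fell in 11 of 12 cases (median -5.98): Apoa1, an apolipoprotein, gave a signal below the floor in leptotene/zygotene and 19657 in somatic mix (at least 224-fold lower), and Alb, albumin, gave 89.3 in leptotene/zygotene and 17452 in somatic mix (195-fold lower). Ahsg, the fetuin of plasma, was 61.7-fold lower. Kidney genes fell in 9 of 10 cases (median -4.52), with 179 in leptotene/zygotene and 12423 in somatic mix for Kap, an androgen-regulated kidney protein (69.2-fold lower), and a signal below the floor in leptotene/zygotene and 4179.9 in somatic mix for Umod, uromodulin (at least 47.7-fold lower).

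Genes of the gut fell as well. Small intestine genes fell in 7 of 8 cases (median -4.37), among them Apoa4, a lipoprotein of the gut, with a signal below the floor in leptotene/zygotene and 13048 in somatic mix (at least 149-fold lower) and Lct, the lactase of suckling animals, with a signal below the floor in leptotene/zygotene and 4391 in somatic mix (at least 50.1-fold lower). Colon genes fell in 10 of 11 cases (median -4.52), with a signal below the floor in leptotene/zygotene and 6527 in somatic mix for Guca2a, the peptide guanylin (at least 74.5-fold lower). Lgals4, an intestinal galectin, and Mamdc4, an endosomal protein of the suckling gut, were named by the rule at 59.0-fold and 67.8-fold lower, and Gpx3, the plasma glutathione peroxidase made by the kidney, at 95.6-fold lower. Spleen and lymphoid genes fell in 7 of 9 cases (median -3.26), led by the red cell anion exchanger Slc4a1 (at least 44.2-fold lower) and the immunoglobulin chain Ighm (33.1-fold lower, with 1 of its 4 other probe sets at 0.12 on the log2 scale). Organs with weaker signals in the mix gave smaller differences, with 5 of 13 brain genes (median -1.75), 4 of 9 skin genes (-1.94), 3 of 8 lung genes (-1.55, and 0.15 for the 1 measured on the second design) and 1 of 4 stomach genes (-0.79) falling. Mbp, the myelin basic protein, gave a signal below the floor in leptotene/zygotene and 5146 in somatic mix (at least 58.7-fold lower), Napsa, a protease of lung and kidney, a signal below the floor in leptotene/zygotene and 3955 in somatic mix (at least 45.1-fold lower), and Tff2, a stomach peptide, a signal below the floor in leptotene/zygotene and 4042 in somatic mix (at least 46.1-fold lower). Each of the 11 organ lists thus had members above the floor in the mix. Of the 10 stomach genes on the arrays, however, 6 were below the floor in both groups. Atp4a, another stomach gene, was alike in both, with 152 in leptotene/zygotene and 160 in somatic mix.

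The 8 genes named for the highest signal in somatic mix with leptotene/zygotene below the floor were products of the exocrine pancreas apart from Apoa1. Cela1 and Cela3b, which encode elastases, were at least 229-fold and at least 186-fold lower, with 20105 and 16329 in somatic mix. Prss2, a trypsinogen, gave a signal below the floor in leptotene/zygotene and 19499 in somatic mix (at least 223-fold lower). Ctrb1 and Ctrc, chymotrypsinogens, Rnase1, a ribonuclease, and Reg1, a secreted pancreatic protein, were at least 212-fold, at least 201-fold, at least 204-fold and at least 201-fold lower. Cela2a, another elastase, was above the floor in both groups, with 114 in leptotene/zygotene and 20181 in somatic mix (176-fold lower). The labels do not list the pancreas among the pooled organs, and a pancreas list added after these values were seen fell in 16 of 17 members. Its summed signal was 1569 in leptotene/zygotene and 232262 in somatic mix.

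Other functions of somatic tissue were lower without most genes being called. Of 18 antigen presentation genes 4 fell and 13 were lower beyond the error limit (median -1.11). The class II genes H2-Aa and Cd74 gave a signal below the floor in leptotene/zygotene and 1523 in somatic mix (at least 17.4-fold lower) and 140.4 in leptotene/zygotene and 2195 in somatic mix (15.6-fold lower), and the immunoproteasome subunit Psmb8 gave 139 in leptotene/zygotene and 1073 in somatic mix (7.69-fold lower). B2m, the light chain of class I molecules, gave 3099 in leptotene/zygotene and 10779 in somatic mix, and H2-K1 gave 3826 in leptotene/zygotene and 6810.5 in somatic mix. Extracellular matrix genes were close to the organs, with 1 of 24 falling, 5 higher and 11 lower beyond the error limit (median -0.41, between -0.72 and -0.10 under the other scalings). Over all genes measured these shares were 7.36% falling, 33.8% higher and 32.2% lower. Postn, periostin, was the matrix gene that fell (6.80-fold lower), and Lama2, a laminin chain of basement membranes, was 1.61 higher (log2). Imprinted growth genes went both ways, and the sign of their median moved with the processing (0.11 as reported, -0.21 with arrays scaled to the shared probe sets, -0.28 without probe sets named _x_at or _s_at): Dlk1 rose 10.1-fold, with 1402 in leptotene/zygotene and 139 in somatic mix, and Cdkn1c, a cell cycle inhibitor, fell 6.05-fold, with 164 in leptotene/zygotene and 994 in somatic mix.

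The 100 probe sets placed on both designs were the only ones measured in both samples of each group. They were tested with limma on the 10 arrays, and at a Benjamini-Hochberg adjusted p below 0.05 40 were higher (40%) and 18 lower (18%) in leptotene/zygotene. This split moved with the scaling, to 52 and 7 with median scaling, 45 and 2 as deposited and 20 and 14 with quantile normalization. Zranb1, a deubiquitinase, gave 2053 and 1809 in leptotene/zygotene against 352 and 464 in somatic mix, a difference of 2.25 ± 0.17 (log2, SE, n = 2 each; limma adjusted p = 8.12e-11). Ankrd17, an ankyrin repeat protein, gave 1279 and 1262 against 334 and 440.3 (1.73 ± 0.17, limma adjusted p = 8.19e-09). Cpsf7, a subunit of the mRNA cleavage factor, gave 736 and 775 against 232 and 278 (1.57 ± 0.17, limma adjusted p = 2.50e-08). Anapc2, a core subunit of the anaphase promoting complex, gave 1724 and 1582 against 586 and 724 (1.34 ± 0.18, limma adjusted p = 6.49e-07). On the lower side, Dhrs1, a dehydrogenase, gave 171 and 144 in leptotene/zygotene against 468 and 929 in somatic mix (-2.07 ± 0.22, limma adjusted p = 2.50e-08), and Rfk, riboflavin kinase, gave 613 and 624 against 1391 and 1342 (-1.14 ± 0.17, limma adjusted p = 3.18e-06). The samples of the groups did not overlap in these genes, which were picked among those the test called, so this adds nothing to the test. The designs gave the same direction for 89 of the 100, with r = 0.90 across probe sets, which are not independent replicates. No shared probe set was at least 4-fold apart on both designs and 2 were on 1 design, so the largest differences of the meiotic and organ genes were not covered by this test. The labels do not say that samples 1 and 2 were separate preparations, and the p-values then measure the spread between these samples only.

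**Figure D5:**
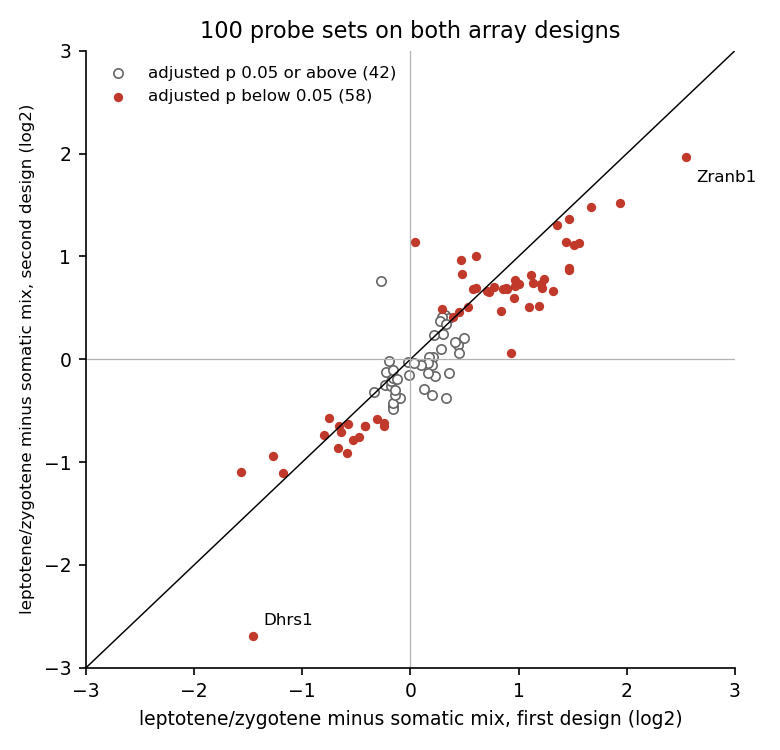
Difference of log2 scaled signal, leptotene/zygotene minus somatic mix, on the first design (horizontal axis) and the second (vertical axis) for the 100 probe sets on both. Filled points passed the limma test (58) and open points did not (42), and the line marks equal differences. Most points lie near the line, and Dhrs1 and Zranb1 are the outermost.

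A further 2265 genes were measured by different probe sets on the 2 designs. Of 115 that rose on the first design, 93 (80.9%) were higher on the second, 21 rose there as well and 1 fell. Of 86 that fell on the first design, 79 (91.9%) were lower on the second, 28 fell there as well and none rose. Over all 2265 genes, 3.44% rose and 3.13% fell on the second design and 45.7% had a difference above 0. The direction was thus found again for most called genes and the 4-fold size for fewer. Within the first design or the second, 340 of the genes that rose had a further probe set above the floor, and in 257 of these all of them had the same direction, while in 10 a further probe set went the other way by over 1 log2 unit. For genes that fell these numbers were 318, 299 and 4.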

How the data were processed

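RNA of leptotene/zygotene spermatocytes and of a somatic organ mix (2 samples each, 1 per array design) was labelled as biotin cRNA, per the labels' protocols. The deposited values are 1 linear intensity per probe set, made with GCOS 1 per the submitters' processing notes, and the scaling target and background correction are not stated there. Each array was scaled here to the 2% trimmed mean of the 5 arrays of its design. The floor was the 90th percentile over 68 probe sets of chemosensory receptors (first design) or the median of all signals (second design, which held 15 such probe sets against a minimum of 20). Probe sets with 1 gene were used, and each gene took the probe set of highest mean log2 signal, and the first design was preferred where it was above the floor there. Values below the floor were set to it.

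Named were, in each direction, the 8 genes with the largest difference where neither group was below the floor, and the 8 with the highest signal against a group at the floor, leaving out unnamed clones and genes with a probe set opposed by over 1 (log2). List members with the largest differences, the brightest and those against the rest were named besides, and probe sets that limma called. Members and lists were chosen with earlier results of these data known. The error of a difference is the root mean square gap between designs over the 100 shared probe sets, over the root of 2, and the limit is 1.96 times it. These probe sets were tested with limma 3.58.1 (R 4.3.3) on 10 arrays in 5 groups, with Benjamini-Hochberg adjustment, and the rest was computed with Python 3.11.15. The gene table and the limma step were tested on simulated data. Deviations of same-numbered samples correlated between -0.02 and 0.57 over 10 pairs of groups, so the numbers were not taken as pairs. The alternatives were other scalings, floors, thresholds and probe sets, each design or array left out, and the number as a block. The number of arrays limits the precision.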

Additional observations from a re-analysis of the deposited data

Results flagged for a closer look

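Probe sets that name no gene or several genes are outside the comparisons above. Of 2246 such probe sets on the first design 1286 were measured, 58 were at least 4-fold higher and 106 lower in leptotene/zygotene, and 21 of the higher ones had somatic mix below the floor. On the second design 4270 of 7850 were measured, 54 were higher and 52 lower, and 30 of the higher ones had somatic mix below the floor. Over all genes measured, 5.38% were at least 4-fold higher, 7.36% lower, and 1.93% higher with somatic mix below the floor. The counts were near these shares on the first design and below them on the second. The 18S ribosomal RNA control gave, at its 3' end, 1801 in leptotene/zygotene and 526 in somatic mix on the first design, a ratio of 3.42, and 1814 against 573 on the second, a ratio of 3.16. The part of this control in the gene differences was not tested.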

How the results depend on the processing

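The counts of 796 genes higher and 1090 lower stayed within 1.5 times under quantile normalization, median scaling, scaling to the shared probe sets, the floor at the 40th percentile, the mean over probe sets, the omission of probe sets named _x_at or _s_at and the use of only the 4 arrays of both groups, an alternative chosen after seeing the data. As deposited, 1262 genes were higher and the median difference (both groups above the floor) was 0.54. The floor at the 60th percentile left 497 higher and 709 lower, and log2 of signal plus floor left 472 higher. An 8-fold threshold left 217 and 521, and a 2-fold threshold gave 2979 and 2865. Without either numbered sample, that is on 1 design alone, there were 330 to 546 higher genes, 324 to 844 lower genes, 35 to 50 germ cell list genes higher and 9 to 71 organ list genes lower, since fewer genes are read. On the second design alone against the first, list medians were 0.25 against -0.56 for spermatid, 0.92 against -0.77 for peritubular and 0.15 against -1.55 for lung markers, and Trip13 gave -0.062 against 2.57; the cause was not tested. The second design held 1 to 9 members of each of these and the following lists. There, Leydig genes had a median of 0.0090, replication genes 0.26, immediate-early genes 0.71, macrophage and blood genes -0.58, early pachytene genes 1.36, break formation genes 1.95 and telomere genes 1.83. With the floor at the 60th percentile the last 3 gave 1.35, 2.55 and 1.74, and Leydig 1.00, brain -0.76, skin -0.90 and stomach markers -2.67. As deposited, antigen presentation genes gave -0.70. Of 227 named and list genes called, 217 to 226 remained called under the 4 other scalings, 177 with the 60th percentile floor, and none reversed there. The shared probe set test called 58; quantile normalization gave 34, and leaving out 1 array 47 to 51. With the replicate block it called 58 (40 higher and 18 lower) as without it. Genes at the floor have bounds only, so signal over background limits their folds.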

Other observations

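Whole testis carried organ transcripts that were near or below the floor in leptotene/zygotene. Alb gave 89.3 in leptotene/zygotene, 3907 in whole testis and 17452 in somatic mix. Apoa1 gave 9350.0 and Apoa4 9684 in whole testis, with leptotene/zygotene below the floor. Of the pancreatic genes, Cela1 gave 3561 and Pnliprp1, a lipase relative, 6059 in whole testis. The summed signal of the pancreas list was 1856 in spermatogonia, 1569 in leptotene/zygotene, 1751 in pachytene, 37135 in whole testis and 232262 in somatic mix. The endocrine genes Ins2 (insulin) and Gcg (glucagon) were lower in leptotene/zygotene, 20.6-fold for Ins2 and at least 12.9-fold for Gcg, set against somatic mix. Ptf1a, a transcription factor of the exocrine pancreas, gave a signal below the floor in leptotene/zygotene and 187 in somatic mix.

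Across all genes measured 5.38% rose and 7.36% fell. Gene families grouped by the start of the symbol, with at least 10 members measured, also differed. The families were picked after seeing the values. Keratin-associated proteins of hair (Krtap) fell in 20 of 36 cases and keratins (Krt) in 18 of 41. Aquaporins (Aqp) fell in 6 of 10, serine protease inhibitors of the plasma type (Serpina) in 6 of 11, with 2 rising, and carbonic anhydrases (Car) in 7 of 16. Cytochromes P450 (Cyp) fell in 15 of 54, with 2 rising, and solute carriers (Slc) in 51 of 296, with 10 rising. Among families that rose, testis-expressed genes (Tex) did so in 11 of 22 cases, TATA-box binding protein associated factors (Taf) in 7 of 22 and kinesins (Kif) in 7 of 31, with 1 falling.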
